A study of Mus musculus with 6 samples.

Results

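The genes of gamma-secretase and its metformin-linked partner were followed in cultured mouse cells labelled as female germline stem cells (FGSCs). The set was given as 7 named genes and was matched by Ensembl identifier to 7 of the 55401 genes in the deposited RNA-seq table. It holds presenilin 2 (Psen2), PEN2 (Psenen), nicastrin (Ncstn), the APH1 proteins (Aph1a, Aph1b and Aph1c) and the V-ATPase accessory protein Atp6ap1. The control group was untreated FGSCs of C57BL/6 strain, and the metformin group was the same kind of culture given 1 μM metformin for 24 h, with 3 libraries in each group. Both groups were past passage 20 and were grown on mitotically inactivated STO feeder fibroblasts in medium with leukemia inhibitory factor, EGF, bFGF and GDNF. The labels do not say whether the repeats were separate cultures or came from 1 line, so the p-values below measure the spread between these libraries.

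Gamma-secretase is a membrane protease that cuts the transmembrane stubs left after sheddases have removed the outer part of proteins such as Notch receptors. Presenilin carries the catalytic aspartates, nicastrin admits the substrate, APH1 is the scaffold, and PEN2, the smallest subunit, triggers the cleavage that activates presenilin. PEN2 has another described role as a protein that binds metformin at low concentrations. Metformin-bound PEN2 is described to join ATP6AP1, a glycoprotein of the lysosomal V-ATPase, which inhibits the proton pump and activates AMPK on the lysosome. The comparison of metformin with control libraries asks whether the RNA of these subunits changed. It does not measure binding, assembly or protease activity.

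The labelled cell type was checked against its defining markers. Of 6 germ cell markers, 0 reached a mean of 1 FPKM, and Dazl, Dppa3 and Pou5f1 were listed at 0 in all libraries. Of 10 blood cell markers, 8 reached that level, including Cpa3 with a mean of 352 FPKM and Kit with 118 FPKM. Fcer1a, listed at 0 in all libraries, and Itgam, with a mean of 0.0133 FPKM, did not. The 10 fibroblast markers, which would show RNA from the feeder cells, summed to 0.81 to 0.97 FPKM in control libraries and 0.80 to 0.83 FPKM with metformin, and none of them reached 1 FPKM. These RNA levels thus go against the label, and the values below are given for the cultures as measured. For its FGSC line, the study itself reported these 6 germ cell markers by RT-PCR and the Ddx4 protein by immunofluorescence. The difference between those assays and these libraries was not tested. Estimated depth was 13400000 to 14050000 fragments per library. In such bulk samples, fewer cells of a type and less RNA per cell cannot be told apart.

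Promoters are shown for Psen2, because the study designed ChIP-qPCR primers for this promoter, and for Psenen, the gene of the metformin-binding subunit. RefSeq gives 2 start sites for each of them in GRCm38.p6, and each sequence below runs 5′ to 3′ from 250 bases before to 50 bases after a start, on the minus strand. Capitals mark, on either strand, the GC box (GGGCGG), the CCAAT box (CCAAT), the E-box (CACGTG) and the RBPJ core (TGGGAA).
Psen2 start 1, chr1:180256251-180256550: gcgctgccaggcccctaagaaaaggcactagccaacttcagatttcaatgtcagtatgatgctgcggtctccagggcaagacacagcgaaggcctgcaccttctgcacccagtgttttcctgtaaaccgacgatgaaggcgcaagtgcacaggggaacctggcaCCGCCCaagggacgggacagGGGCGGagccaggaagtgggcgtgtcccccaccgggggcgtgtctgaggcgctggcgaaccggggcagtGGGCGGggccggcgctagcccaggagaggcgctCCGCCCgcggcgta
Psen2 start 2, chr1:180245901-180246200: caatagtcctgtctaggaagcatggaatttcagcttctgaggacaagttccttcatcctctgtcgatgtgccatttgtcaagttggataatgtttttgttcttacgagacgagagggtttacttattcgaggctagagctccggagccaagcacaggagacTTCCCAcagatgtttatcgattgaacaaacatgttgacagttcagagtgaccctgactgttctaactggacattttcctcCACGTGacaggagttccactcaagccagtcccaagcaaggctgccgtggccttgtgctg
Psenen start 1, chr7:30563578-30563877: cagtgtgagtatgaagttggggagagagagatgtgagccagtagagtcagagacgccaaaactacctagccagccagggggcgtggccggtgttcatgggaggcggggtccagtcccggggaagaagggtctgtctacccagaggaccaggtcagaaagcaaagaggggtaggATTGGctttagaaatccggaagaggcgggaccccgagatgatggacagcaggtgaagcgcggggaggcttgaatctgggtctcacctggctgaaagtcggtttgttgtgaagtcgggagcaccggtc
Psenen start 2, chr7:30563155-30563454: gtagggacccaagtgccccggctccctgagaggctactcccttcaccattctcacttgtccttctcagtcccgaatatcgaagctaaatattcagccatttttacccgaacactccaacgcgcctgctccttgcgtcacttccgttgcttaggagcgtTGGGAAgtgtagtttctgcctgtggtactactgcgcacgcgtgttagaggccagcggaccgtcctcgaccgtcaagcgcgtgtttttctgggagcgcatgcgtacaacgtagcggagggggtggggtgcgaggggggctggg

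The Psen2 starts differ in composition. The first has 23 CpG dinucleotides and 65.7% GC with 4 matches to GGGCGG, the GC box, whereas the second has 8 CpG and 47.7% GC with 1 E-box (CACGTG). The medians over 32851 RefSeq promoters of this length were 7 CpG and 52.7% GC. GGGCGG was found in 35.7% of them and CACGTG in 7.15%. Neither Psenen window holds GGGCGG. The first holds 1 match to CCAAT, present in 37.4% of all promoters, and the second 1 match to TGGGAA, the core letters of the RBPJ motif through which Notch acts, present in 25.6%. The second Psen2 window and the Aph1a window also hold 1 match to TGGGAA each. None of the 9 windows of the 7 genes holds TGATGNAA, the letters of the element bound by C/EBP-ATF4 dimers, which 3.97% of all promoters hold, or TCACGTGA, the lysosomal gene motif, which 0.974% hold. The primers listed for the Psen2 promoter, CACCGCATACTGTGACTG and CAGTGTACAGTGGGCTAC, each had 0 exact matches on either strand in both Psen2 windows. Neither window covers the 5′ end of Psen2 in the deposited positions, 180263438. No other sequence was searched for the primers, so where they lie was not determined.

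The levels of the 7 genes were ordered the same way in every library. FPKM divides by gene length, so levels were compared between genes, but the lengths used by the authors are not given in the sources used here. For Psen2, GENCODE M1 gives 3832 bp for all exons merged and 2020 bp for the longest protein-coding transcript. The order of genes with close levels, such as Psen2 and Ncstn, may therefore depend on the length used. Atp6ap1 had the highest mean over the 6 libraries (33.9 FPKM), followed by Aph1a (17.6), Psen2 (13.8), Ncstn (12.1), Psenen (5.37), Aph1b (1.15) and Aph1c (0.295). Between no neighbours in this order did the ranges over the 6 libraries overlap. The closest pair was Psen2 and Ncstn, whose nearest values were 12.83 FPKM for Psen2 and 12.73 FPKM for Ncstn. Among the 6 subunit genes listed here, PEN2 was the lowest apart from Aph1b and Aph1c, and its level lay at the 34.0th percentile of the 10661 genes that averaged 1 FPKM or more, against the 57.9th for Ncstn, the 62.1st for Psen2, the 68.9th for Aph1a and the 83.5th for Atp6ap1. Aph1b lay at the 2.20th percentile, and Aph1c was below the filter.

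**Figure D1:**
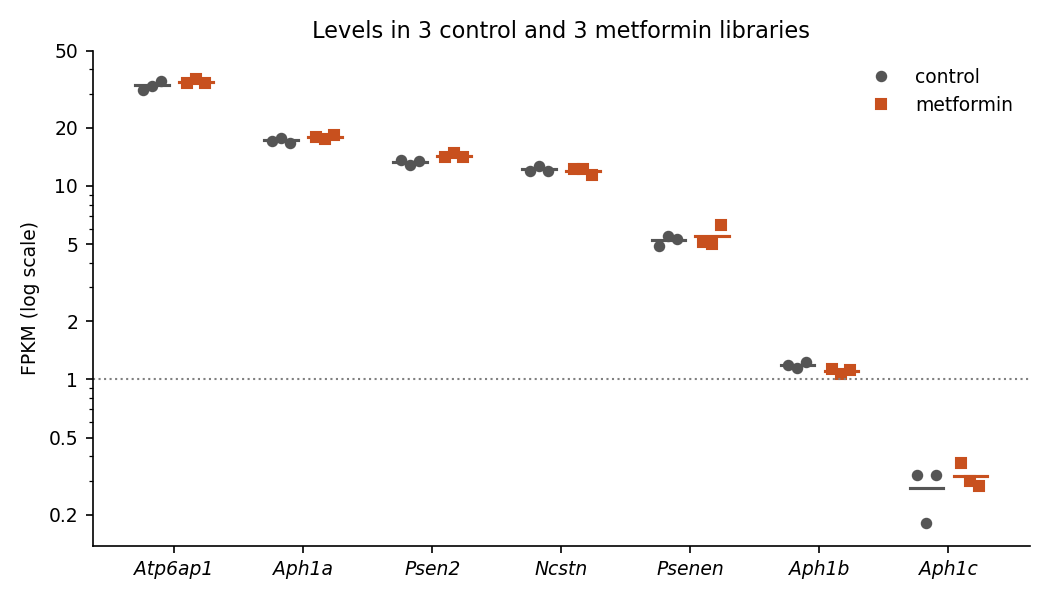
FPKM of each gene (log axis) in 3 control libraries (grey circles) and 3 metformin libraries (orange squares), with a bar at each group mean and a dotted line at the filter of 1 FPKM. The genes run from Atp6ap1 at 31.2 to 35.8 FPKM down to Aph1c at 0.18 to 0.37, and no 2 neighbours overlap.

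Of the 7 genes, 6 passed the filter of a mean of 1 FPKM and entered the test. The test was limma applied to log2(FPKM + 1), with p-values adjusted over all 10661 tested genes. None of the 6 had an adjusted p under 0.05, a threshold that 0.0281% of all tested genes passed (3 genes, all higher with metformin). At an unadjusted p under 0.05, 1 of the 6 passed, Psen2, which had the higher mean with metformin and missed that level when control repeat 2, control repeat 3 or metformin repeat 2 was left out. Of all tested genes 10.8% passed in either direction, 6.03% higher and 4.81% lower with metformin. The added 1 FPKM makes fold changes of low genes smaller than they are in FPKM.

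Psen2, the catalytic subunit, lies on chromosome 1 of GRCm38 from 180227004 to 180263438. It had 13.67, 12.83 and 13.44 FPKM in control repeats 1 to 3 and 14.18, 14.78 and 14.08 FPKM in metformin repeats 1 to 3. Every metformin library was above every control, a pattern that 8.89% of all tested genes shared (exact permutation test, two-sided, p = 0.1, the lowest that 3 libraries against 3 can reach). The study picked Psen2 for follow-up partly by its level in these libraries, so its direction here is not independent evidence. The metformin mean was 1.08 times the control mean. The log2 fold change was 0.10 with a 95% interval of 0.01 to 0.19, and the gene ranked 747 of the tested genes by its p-value (adjusted p = 0.412, limma with Benjamini-Hochberg adjustment). The interval covers folds of 1.01 to 1.14 in FPKM + 1. Its lower end was -0.018 without control repeat 2, -0.0012 without control repeat 3 and -0.019 without metformin repeat 2, so it then included 0. At about 678 to 790 fragments per library, counting alone gives a coefficient of variation (CV) of 3.69%, and the observed CV was 3.26% in the control group and 2.64% with metformin.

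Psenen, which encodes PEN2, lies on chromosome 7 from 30561863 to 30563627 on the minus strand. Control repeats 1 to 3 had 4.91, 5.51 and 5.33 FPKM, and metformin repeats 1 to 3 had 5.14, 5 and 6.31 FPKM. Metformin repeat 3 was the highest of all libraries, and the other two metformin libraries were within the control range. The means were 5.25 ± 0.308 and 5.48 ± 0.719 FPKM (SD, n = 3 each). Their difference was smaller than the SD of the metformin group, with a log2 fold change of 0.05 and a 95% interval of -0.15 to 0.24 (adjusted p = 0.873, limma). This interval covers folds of 0.903 to 1.18 in FPKM + 1, so a change within that range remains possible at this depth and spread. It is not a detection limit, because genes were called by p-values adjusted over all tested genes. Without metformin repeat 3 the log2 fold change was -0.04. With a short transcript of 648 bp, only about 42.6 to 56.4 fragments per library fell on Psenen, for which counting alone gives a CV of 14.4%, against an observed CV of 5.86% in the control group and 13.1% with metformin.

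Nicastrin, the glycoprotein with the large outer domain, is encoded by Ncstn on chromosome 1 from 172066013 to 172082795. It had 11.94, 12.73 and 11.96 FPKM in control repeats 1 to 3 and 12.17, 12.17 and 11.46 FPKM with metformin. The groups overlapped, and the log2 fold change was -0.03 with a 95% interval of -0.13 to 0.07 (adjusted p = 0.824, limma). With nicastrin as the reference within each library, which removes the scaling between libraries, the ratio of Psen2 to Ncstn had a geometric mean of 1.09 in the control group and 1.20 with metformin. On the log2 scale this ratio was 0.20, 0.01 and 0.17 in control repeats 1 to 3 and 0.22, 0.28 and 0.30 in metformin repeats 1 to 3. The metformin libraries were all above the control libraries, with a difference of 0.14 (exact permutation test, two-sided, p = 0.1, the smallest possible). This ratio rests on the same Psen2 values as above, so its direction is not independent evidence either. Control repeat 2 had the lowest ratio, and without it the difference was 0.084. The ratio of Psenen to Ncstn had geometric means of 0.430 and 0.457, and the groups overlapped (exact permutation test, two-sided, p = 0.9). Leaving out metformin repeat 3 turned that log2 difference from 0.09 to -0.04.

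The APH1 scaffold was almost entirely transcribed from one of its 3 genes. Aph1a, on chromosome 3 from 95893969 to 95898288, gave 91.5% to 93.1% of the summed FPKM of the 3 genes per library, Aph1b gave 5.65% to 6.74% and Aph1c gave 0.944% to 1.91%. The Aph1a share was 92.2% ± 0.807 in the control group and 92.6% ± 0.338 with metformin (SD, n = 3 each, exact two-sided permutation test, p = 0.5). The difference of 0.457 percentage points was 0.905 without control repeat 2, 0.122 without control repeat 3 and 0.308 without metformin repeat 3. Aph1a itself had 17.15, 17.75 and 16.71 FPKM in control repeats 1 to 3 and 17.91, 17.42 and 18.42 FPKM with metformin. Metformin repeats 1 and 3 were above all controls and repeat 2 was not, with a log2 fold change of 0.06 and a 95% interval of -0.03 to 0.14 (adjusted p = 0.605, limma).

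Aph1b and Aph1c lie side by side on chromosome 9, from 66775202 to 66795490 and from 66814994 to 66834726. Rodents carry both copies, and RefSeq lists each of these symbols as an alias of the other, so they were matched by identifier alone. Their coding sequences, of 774 and 777 bp in GENCODE M1, were 96.3% identical over 774 aligned bases with 29 mismatches and 1 identical stretch of 341 bases, whereas Aph1a was 63.9% identical to Aph1b. The windows of 60 coding bases in which the copies differ most, bases 5 to 64 from the start codon in both, are shown because reads here can be told apart. Capitals mark the 11 bases that differ.
Aph1b: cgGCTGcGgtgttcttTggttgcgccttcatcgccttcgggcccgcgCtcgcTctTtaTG
Aph1c: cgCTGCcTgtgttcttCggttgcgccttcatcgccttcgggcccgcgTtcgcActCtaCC
Of all stretches of 50 bases in protein-coding transcripts, 18.4% of those of Aph1b also occurred in Aph1c, and none of those of the other 5 genes occurred in another gene. How the authors' counting treated reads that fit both copies is not given in the sources used here, so the levels of both are uncertain.

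Aph1b had 1.18, 1.14 and 1.23 FPKM in control repeats 1 to 3 and 1.13, 1.07 and 1.12 FPKM in metformin repeats 1 to 3. Every metformin library was below every control, as for 8.1% of all tested genes (exact permutation test, two-sided, p = 0.1). The metformin mean was 0.935 times the control mean. The log2 fold change of -0.05 had a 95% interval of -0.24 to 0.13 (adjusted p = 0.853, limma). The observed CVs were 3.81% and 2.90%, and limma's interval uses a spread drawn toward that of genes of similar level. About 77.1 to 88.9 fragments per library, with a counting CV of 11.1%, stand behind these values, so the observed spread was narrower than counting alone gives. Aph1c had 0.32, 0.18 and 0.32 FPKM in the control group and 0.37, 0.30 and 0.28 FPKM with metformin, was not tested, and the groups overlapped. It rested on about 12.9 to 27.1 fragments per library.

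Atp6ap1, the lysosomal partner, lies on the X chromosome from 74297097 to 74304721. It had 31.24, 33.05 and 35 FPKM in control repeats 1 to 3 and 34.26, 35.76 and 33.97 FPKM with metformin. Only metformin repeat 2 was above all controls, and control repeat 1 was the lowest. The log2 fold change was 0.07 with a 95% interval of -0.04 to 0.17 (adjusted p = 0.620, limma). It was 0.03 without control repeat 1, 0.04 without metformin repeat 2 and 0.11 without control repeat 3, the last with an interval of 0.0093 to 0.20 (adjusted p = 0.516, limma). Against the geometric mean of 15 tested V-ATPase subunits in the same library, the ratio of Atp6ap1 was 1.80 in the control group and 1.88 with metformin, and the groups overlapped (exact permutation test, two-sided, p = 0.4). The log2 difference of 0.066 was 0.029 without control repeat 1, 0.027 without metformin repeat 2 and 0.11 without control repeat 3. The control group had an observed CV of 5.68%, the only one among the 5 genes with a mean above 5 FPKM that was larger than its counting CV (2.65%) by more than 1.5 times.

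**Figure D2:**
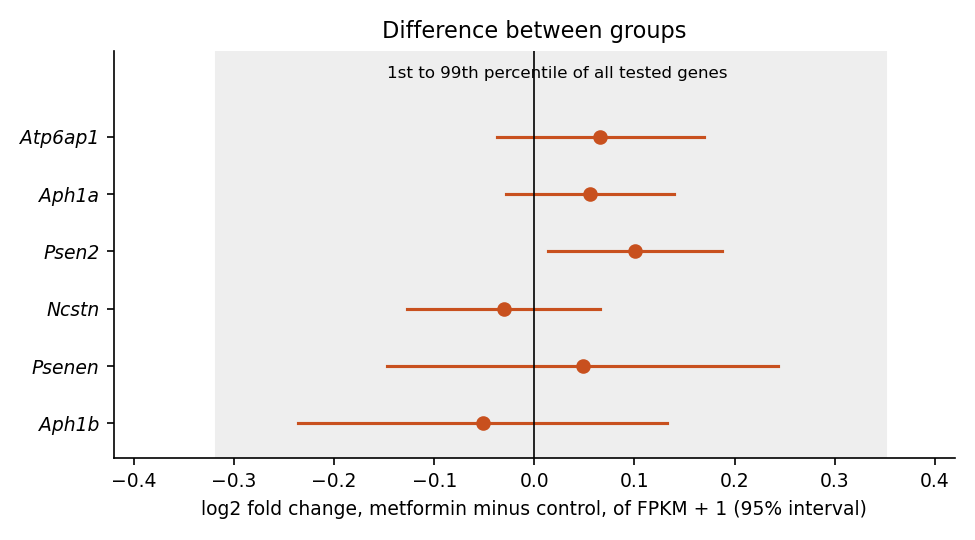
Log2 fold change of FPKM + 1, metformin minus control, for the 6 tested genes (points) with 95% intervals from limma (lines, n = 3 libraries per group), over a grey band that leaves out 1% of all tested genes at each end (-0.32 to 0.35). With all 6 libraries the interval of Psen2 lies above 0 and the other 5 include 0, and Psenen and Aph1b have the widest. With single libraries left out, the Psen2 interval can include 0 and that of Atp6ap1 can lie above it.

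**Figure D3:**
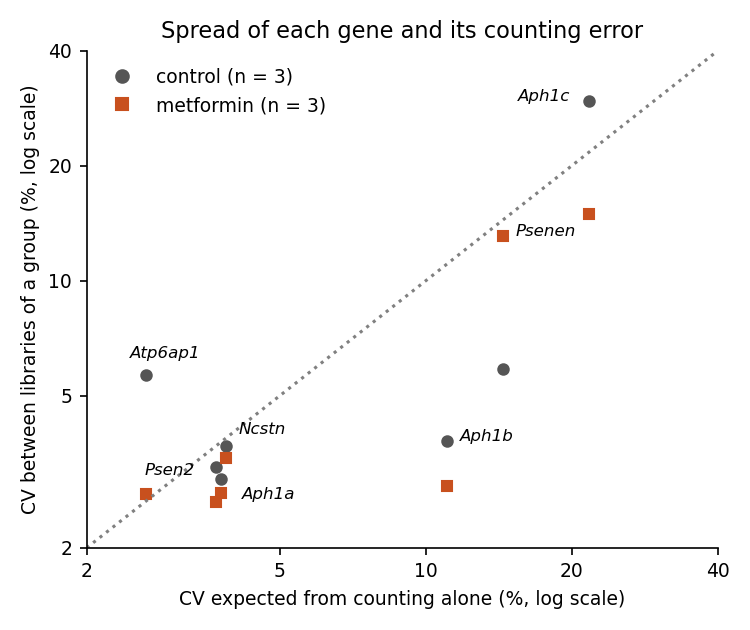
CV between the 3 libraries of each group against the CV that counting of the estimated fragments alone would give, both in percent on log axes, with a dotted line where they are equal. Psen2, Aph1a, Ncstn, Psenen and Aph1b lie below the line in both groups, Aph1b farthest, while Atp6ap1 in both groups (5.68% and 2.77% against 2.65%) and Aph1c in the control group (29.6% against 21.7%) lie above it.

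Overlapping genes could bear on some of these values, which was not tested. Psenen overlaps U2af1l4, which is read from the other strand and averaged 1.95 FPKM, from 30563301 to 30563627 in the deposited positions, although they share 0 exonic bases in GENCODE M1. Ncstn overlaps Copa on the opposite strand over 267 bp, with 195 shared exonic bases (4.91% of the Ncstn exons), and Copa had 36.0 FPKM. Aph1a shares 445 exonic bases with Car14, which had a mean of 0.128 FPKM. The labels name a stranded kit and the study's methods name another kit, and whether counting used the strand is not given in the sources used here.

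The patterns most like those of 3 of the genes were found by Pearson's r of log2(FPKM + 1) over the 6 libraries, as a description that shares depth and libraries. For Psen2 they were Epb4.1 (r = 0.994), Stradb (0.993) and Wdr74 (0.990), and 139 of the tested genes had r above 0.9. For Psenen they were Cdc26 (0.983), Riok3 (0.980) and Clcn4-2 (0.980), with 56 genes above 0.9. For Atp6ap1 they were Npc2 (0.994), a lysosomal cholesterol carrier, Pop5 (0.986) and Smagp (0.974), with 94 genes above 0.9.

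The genes around gamma-secretase were described by lists of known members, each given by its counts and its median log2 fold change beside the median of all tested genes, 0.0041. None of the 7 lists had a gene with an adjusted p under 0.05. Groups did not overlap for 17% of all tested genes.

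Factors that regulate the complex were 3 tested of 5 listed, with a median of 0.04 and 2 higher and 1 lower. Rer1, which retains unassembled PEN2 and nicastrin in the early secretory pathway, had 55.1 ± 1.36 FPKM in the control group and 54.6 ± 2.77 with metformin (SD, n = 3 each). Tmed10, a cargo receptor found with the complex, had 52.1 and 54.1 FPKM, and Ubqln1, which binds presenilins, had 51.7 and 53.0 FPKM. Gsap and Ifitm3, which are described to modulate the protease, had means below 1 FPKM. The signal peptide peptidases, which share the presenilin fold, had 4 of 5 genes tested, with a median of 0.03, 3 higher and 1 lower, and 1 without overlap between groups. Hm13, the signal peptide peptidase, had 15.7, 15.6 and 16.0 FPKM in the control group and 17.3, 16.9 and 16.3 FPKM with metformin, all 3 above the controls, with a log2 fold change of 0.09 and a 95% interval of 0.01 to 0.17 (adjusted p = 0.406, limma). Sppl2b was at 11.1 and 11.6 FPKM, and Sppl3 was at 9.03 and 8.99 FPKM.

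Most of the well-known substrates were scarcely transcribed in these cultures. Of 29 substrates listed, 7 reached 1 FPKM, and App, the precursor of amyloid peptides, had means of 0.0167 and 0.0267 FPKM. Cd44 (22.1 and 22.8 FPKM in the control and metformin groups) and Notch2 (17.4 and 17.6) were among the highest. Notch1 had 2.40 and 2.37 FPKM, and Jag2, a Notch ligand, had 4.69 and 4.60 FPKM. The tested substrates had a median of 0.01, with 5 higher and 2 lower, and 0 had groups without overlap. Of 24 genes of the Notch nuclear complex, its targets and regulators, 15 were tested, with a median of 0.0022, 8 higher and 7 lower, and 3 without overlap. The direct targets Hes5 and Heyl were listed at 0 in all libraries, and Hes1 had 0.07, 0.11 and 0.21 FPKM in the control group and 0.07, 0 and 0 FPKM with metformin, all under the 0.214 to 0.224 FPKM that 3 fragments on a transcript of 1 kb give. Myc had the highest level of this list and the largest log2 fold change among its genes without overlap, from 173 ± 2.71 to 188 ± 2.06 FPKM (SD, n = 3 each, log2 fold change 0.12, adjusted p = 0.283, limma). Il2ra, the alpha chain of the interleukin 2 receptor, had the lowest log2 fold change of this kind, -0.06, with 16.3 and 15.6 FPKM. Mfng, a glycosyltransferase that modifies Notch, had 42.6 and 41.9 FPKM, and Ccnd1 had 30.0 and 29.0 FPKM.

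RNA of some of the proteases that act before gamma-secretase was found at a mean of 1 FPKM or more. Of 16 sheddases, beta-secretases and their partners, 9 were tested, with a median of -0.02, 4 higher and 5 lower, and 2 without overlap. Adam10, the main sheddase of Notch, had 30.4 ± 1.86 FPKM in the control group and 29.0 ± 1.42 with metformin (SD, n = 3 each). Tspan5, a tetraspanin that guides ADAM10, had 6.45, 6.55 and 6.36 FPKM in the control group and 7.58, 7.38 and 7.09 FPKM with metformin, with no overlap between groups (log2 fold change 0.16, 95% interval 0.07 to 0.26, adjusted p = 0.332, limma). Tspan14, another tetraspanin partner, had 24.7 and 26.4 FPKM. Adam15 had 23.6 and 25.3 FPKM, also without overlap (adjusted p = 0.377, limma). Bace1, the beta-secretase of neurons, was below 1 FPKM, and Bace2 was at or near 0.

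On the lysosomal side, 15 of 24 V-ATPase genes were tested, with a median of 0.0077, 9 higher and 6 lower, and 2 without overlap, both lower with metformin. Their levels ran from 4.16 to 78.7 FPKM, and 2 of them were above Atp6ap1. Atp6v1g1 (76.7 and 80.6 FPKM), Atp6v0b (49.0 and 49.6) and Atp6ap2 (33.7 and 33.8), the other accessory subunit, were the highest. Atp6v0a2, a subunit of the membrane sector, had 15.0, 14.7 and 14.9 FPKM in the control group and 13.6, 13.6 and 13.3 FPKM with metformin. The groups did not overlap, with a log2 fold change of -0.13 and a 95% interval of -0.20 to -0.06 (adjusted p = 0.320, limma). Of 21 genes of the platform on which AMPK and mTORC1 meet the lysosome, 19 were tested, with a median of -0.0080, 9 higher and 10 lower, and 1 without overlap. Lamtor4 (62.9 and 61.2 FPKM) and Lamtor5 (47.4 and 46.4), which anchor the platform, and the GTPase Rraga (43.1 and 40.5) were the highest. Rraga was lower in all 3 metformin libraries than in any control (log2 fold change -0.09, adjusted p = 0.423, limma). Of the AMPK catalytic subunits Prkaa1 had 17.02 and 16.53 FPKM and Prkaa2 was listed at 0, and the scaffold Axin1 had 27.2 and 28.2 FPKM.

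**Figure D4:**
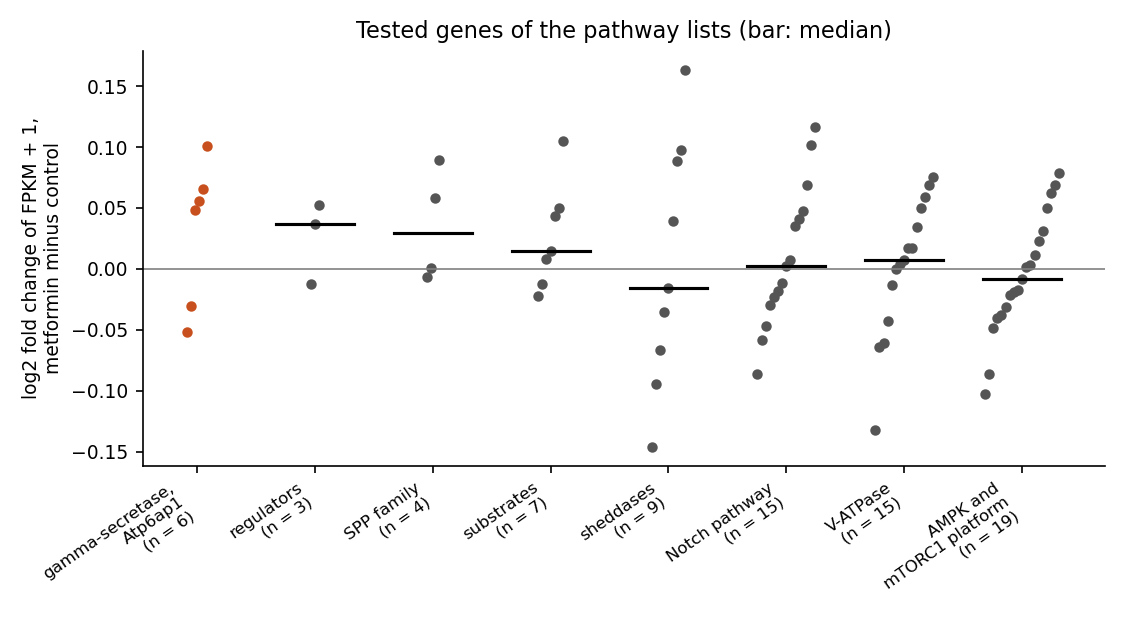
Log2 fold change of FPKM + 1, metformin minus control, of each tested gene (points) in gamma-secretase with Atp6ap1 (orange) and in the 7 pathway lists (grey), with a bar at the median of each pathway list and n the number of tested genes. The medians of the 7 pathway lists lie between -0.02 and 0.04, and all points reach from -0.15 to 0.16.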

How the data were processed

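RNA-seq was done on 3 control and 3 metformin libraries. The authors deposited FPKM values per gene and library, which include their own mapping, counting and scaling to length and depth. The submitters' processing notes name HISAT2, DESeq2 and mm9, whereas the gene positions are those of GRCm38.

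Depth was estimated from single-exon genes shorter than 400 bp (GENCODE M1), whose FPKM values are whole multiples of 1 fragment (100% within 0.1 of a whole number). Fragments per gene used GENCODE M1 exon lengths and are approximate. Genes averaging 1 FPKM or more were tested as log2(FPKM + 1) with limma 3.58.1 (R 4.3.3; lmFit, eBayes with trend, two-sided, Benjamini-Hochberg adjustment, threshold 0.05), a procedure tested on simulated data. Exact permutation tests compared single values. Coding sequences were aligned with Biopython 1.88, and promoters came from RefSeq.

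All 7 genes are named. From each list, genes past the threshold, the largest rise and fall without overlap and the 3 highest levels are named, except 1 result that is not reported here, and others were chosen after their values were seen. The genes and lists were chosen with earlier results of these data known. Alternatives were a pseudocount of 0.1, no filter, a mean of 10 FPKM, TPM rescaling, quantile normalization, no trend, a replicate block and each library left out.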

Additional observations from a re-analysis of the deposited data

How the results depend on the processing

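None of the 6 tested genes passed the threshold under any alternative run, with adjusted p from 0.312 to 0.619 for Psen2 and from 0.733 to 0.988 for Psenen (limma). Without a filter, 7 genes were called over the table (22809 tested) in place of 3, at a mean of 10 FPKM, which leaves out Psenen and Aph1b, 2 were, and with libraries left out 3 to 4. Repeat numbers did not pair the libraries (correlations of deviations -0.0317, 0.0181 and 0.0479). The replicate block gave 2 calls over the table and an adjusted p of 0.536 for Psen2 (limma), whose interval then included 0 (-0.0084 to 0.21). With each library left out, log2 fold changes ran from 0.08 to 0.12 for Psen2, 0.04 to 0.08 for Aph1a, 0.03 to 0.11 for Atp6ap1, -0.045 to -0.0023 for Ncstn, -0.066 to -0.036 for Aph1b, -0.041 (without metformin repeat 3) to 0.10 for Psenen and -0.0043 (without control repeat 2) to 0.08 for Aph1c, and the log2 difference of the ratio of Psenen to Ncstn from -0.045 to 0.17. With a pseudocount of 0.1, Aph1c moved to 0.18 and Aph1b to -0.089. The ratio of Psen2 to Ncstn ran from 0.084 to 0.18 with libraries left out, that of Atp6ap1 to V-ATPase from 0.027 to 0.11, and the Aph1a share difference from 0.122 to 0.905 percentage points. List medians moved to -0.013 for regulators without a filter and, at a mean of 10 FPKM, to 0.074 for signal peptide peptidases, -0.012 for Notch genes and -0.019 for the AMPK platform. Medians also turned below 0 for Notch genes with TPM rescaling (-0.0014) and quantile normalization (-0.0021), for V-ATPase with quantile normalization (-0.0014) and for substrates without a filter (-0.0047). With libraries left out, medians ran from 0.020 (without metformin repeat 3) to 0.045 for regulators, 0.031 to 0.053 for signal peptide peptidases, 0.013 to 0.045 for substrates, -0.047 to 0.032 for sheddases (above 0 without control repeat 2 or metformin repeat 1), -0.0057 to 0.0090 for Notch genes (above 0 without metformin repeat 3, below 0 without any other), -0.015 (without metformin repeat 3) to 0.031 for V-ATPase, and -0.024 to 0.00068 (without metformin repeat 3) for the AMPK platform. The cause was not tested. Depth limits Psenen, Aph1b and Aph1c most, and fragment numbers cover counting error only.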
